A study of Sus scrofa with 6 samples.

Results

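The genes described here encode the lysosomal proton pump (V-ATPase), the cathepsin proteases and the lysosome-associated membrane proteins (LAMPs) of porcine oocytes. They were taken by symbol from the expression table, as every gene whose name begins with ATP6V0, ATP6V1, ATP6AP1, ATP6AP2 or LAMP and a digit, or is CTS and a letter with or without a digit. This gave 41 of the 29861 genes listed, namely 8 genes of the membrane sector V0, 13 of the cytosolic sector V1, 13 cathepsins and 7 membrane proteins (LAMP1, LAMP2, LAMP3, LAMP5, ATP6AP1, ATP6AP1L and ATP6AP2). Members were chosen by symbol alone, with no measured value in the rule, but the set was proposed with results of these data in view, so a count over its members was read only beside the same count over all tested genes.

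Oocytes were sequenced as 6 mRNA libraries, 2 each from control oocytes, oocytes exposed to heat stress, and heat-stressed oocytes given nicotinamide mononucleotide (NMN), a precursor of the coenzyme NAD+ (heat stress+NMN). All 6 carry the labels GV, the germinal vesicle stage of the immature oocyte, and 24 hours, whereas the study's methods place collection for sequencing at metaphase II, after heating as GV oocytes and further culture, and describe pooled oocytes in each library taken from abattoir ovaries. NMN was given only to heated oocytes, so its action without heat was not measured. The labels do not say whether replicates came from separate cultures, and P values therefore measure the spread between these samples, which may be technical. Values are FPKM, fragment counts divided by transcript length and library size, which put genes of different length on a common scale. The depth of the libraries is unknown, since the files used here hold no counts.

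The V-ATPase pumps protons into lysosomes and other acidic compartments. Its V1 sector hydrolyses ATP in a ring of alternating A and B subunits, and its V0 sector carries protons through a membrane ring of proteolipid subunits (c and c'') and subunit a. Cathepsins are proteases, most of them active at acidic pH, that degrade proteins delivered by endocytosis and autophagy, while LAMP1 and LAMP2 are heavily glycosylated proteins of the lysosomal membrane.

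Oocyte transcripts dominated the marker genes of all 6 libraries. Of 15 oocyte markers, 13 averaged at least 1 FPKM, and the summed FPKM of the list averaged 3519 in control, 3321 in heat stress and 2997 in heat stress+NMN. Of these 13, 4, ZAR1 and ZP3 among them, fell between control and heat stress+NMN at an adjusted P under 0.05 and none rose, where 9.17% of all tested genes fell and 12.4% rose. At an unadjusted P under 0.05, 6 were lower and 1 was higher. Their median log2 difference was −0.50, where the median over all tested genes was 0.11. BMP15, the most abundant marker, stood at 1606 and 1646 FPKM in control and 1820 and 1751 in heat stress+NMN. Of 19 cumulus and granulosa cell markers in the table, only GREM1 and INHBA averaged at least 1 FPKM, AMH, AMHR2 and INHA were at 0 in every library, and the sum lay between 9.39 and 20.4 FPKM. None of 9 leukocyte markers reached 1 FPKM. The cumulus sum averaged 18.1 FPKM in control, 12.8 in heat stress and 12.3 in heat stress+NMN, carried by INHBA (16.4 and 13.2 FPKM in control, 4.35 and 10.2 in heat stress+NMN), while GREM1 went from 2.48 and 1.73 FPKM to 3.58 and 3.55. Mitochondrially encoded transcripts made up 66.4% and 61.7% of the summed FPKM in control, 62.4% and 71.6% in heat stress, and 74.2% and 74.7% in heat stress+NMN. The part of the oocyte and cumulus marker levels and of the mitochondrial share in the differences below was not tested. In heat stress replicate 1, LOC100513953, which was at 0 in the other 5 libraries, held 13.9% of the sum. In bulk libraries, fewer cells of a type cannot be told apart from less RNA per cell.

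The lysosomal genes covered a wide range of levels. Averaged over the 6 libraries, 12 of the 41 reached 1 FPKM, where 4713 of all 29861 listed genes did. A further 17 members lay between 0.1 and 1 FPKM, so 29 reached 0.1 FPKM, where 11651 of the 29861 did. Another 9 were detected below 0.1 FPKM, and ATP6V1B1, CTSW and LAMP3 were listed at 0 throughout. The 12 were ATP6V0A2, ATP6V0B and ATP6V0C of V0, ATP6V1B2, ATP6V1C2, ATP6V1D, ATP6V1E1 and ATP6V1G1 of V1, the cathepsins CTSB and CTSK, and the membrane proteins ATP6AP2 and LAMP1. The 1 FPKM average was the entry to the main test, and it separated ATP6V1C2, at 1.27, from ATP6AP1, at 0.960, and ATP6V1F, at 0.807. ATP6V0B averaged over 1 FPKM in control alone and passed through that group.

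**Figure D1:**
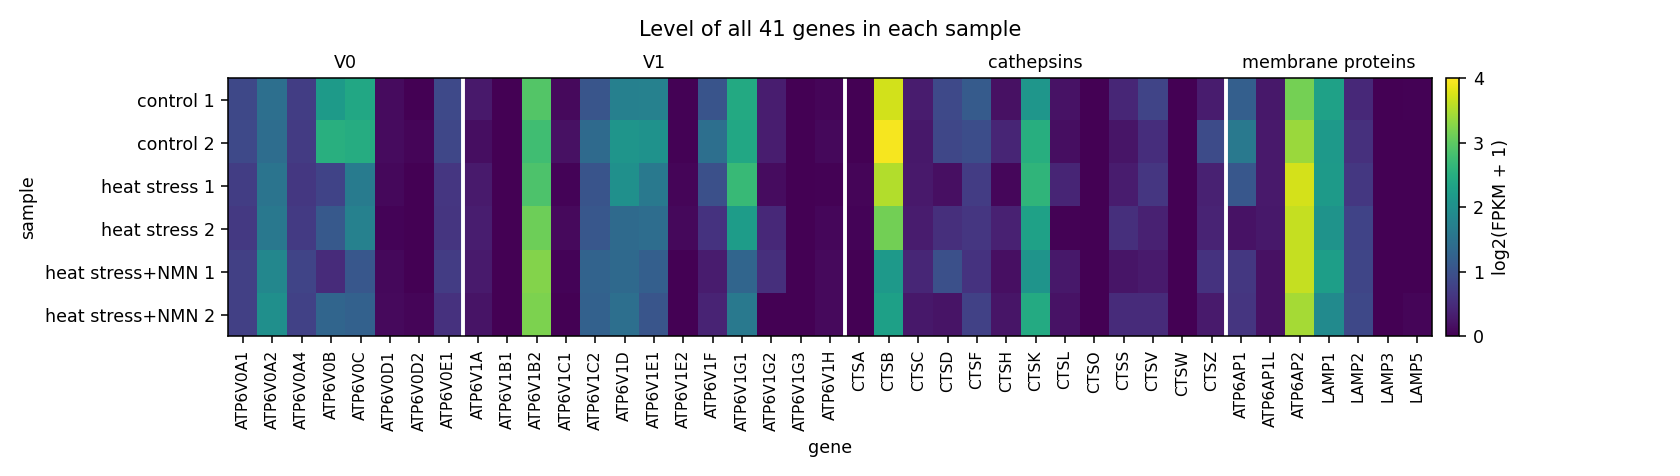
Level of each of the 41 genes (columns, by group) in each library (rows), as log2(FPKM + 1) on a colour scale from 0 to 4. CTSB is brightest in the 2 control libraries and ATP6AP2 is bright in all 6, while 29 genes averaged under 1 FPKM.

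Subunits of the same pump differed widely in transcript level. Summed over its genes and averaged over the 6 libraries, subunit B stood at 7.22 FPKM, subunit G at 3.799, subunit a at 3.53, subunit c at 2.65, subunit D at 2.26, the c'' proteolipid at 2.01 and subunit E at 1.97. Subunit C averaged 1.33 FPKM, subunit F 0.807 and the small subunit e 0.644. The catalytic subunit A, encoded by ATP6V1A alone, averaged 0.193 FPKM, subunit d 0.0809 and the regulatory subunit H 0.0504. ATP6V1B2 exceeded its ring partner ATP6V1A by between 28.4-fold and 54.0-fold in every library. For several subunits a single paralogue made up nearly the whole level. ATP6V1B2 gave all of the B signal, ATP6V1E1 at least 96.3% of the E signal in each library, and ATP6V1C2 at least 92.5% of the C signal, although ATP6V1C1 is the widely expressed form of subunit C and ATP6V1C2 is best known from kidney and lung.

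The E-box CACGTG is the core of the motif through which the MiT/TFE factors, among them TFEB and TFE3, bind lysosomal promoters. The windows are shown because ATP6V1G1 is among the members with the clearest differences below and LAMP1 among those without any, and both carry the motif. Searched on both strands in the 250 bases upstream of each annotated gene start (RefSeq annotation of Sscrofa11.1), CACGTG was present for 6 of the 41 members, or 14.6%, against 6.17% of 20628 protein-coding genes. Its extension TCACGTGA was present for ATP6V1G1, LAMP1 and ATP6V0E1, against 0.713% of protein-coding genes, and for ATP6V1G1 alone it was preceded by G and followed by C, against 0.247%. Among the 4143 tested genes with a window, the shares were higher, at 7.80%, 1.30% and 0.603%. Each longer motif contains the shorter. The windows follow 5′ to 3′ on the gene's strand, with CACGTG in capitals.
ATP6V1G1, chr1:255151859-255151904, plus strand, motif 30 bases before the gene start: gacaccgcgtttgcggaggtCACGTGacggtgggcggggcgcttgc
LAMP1, chr11:78600621-78600666, plus strand, motif 177 bases before: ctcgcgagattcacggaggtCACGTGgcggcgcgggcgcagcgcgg
LAMP1, chr11:78600650-78600695, plus strand, motif 148 bases before: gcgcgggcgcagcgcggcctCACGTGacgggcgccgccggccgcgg
ATP6V0E1, chr16:51260713-51260742, minus strand, motif 10 bases before: gggcgggcccggcgcgcggtCACGTGaggc
LAMP1 also has a CACGTG 248 bases before its gene start, at the edge of the searched window, which is not shown. CTSF, LAMP2 and CTSA were the other members with CACGTG. A match describes the letters of the window and says nothing of binding. ATP6V0B, ATP6V0C and CTSB had none of these motifs in the searched window.

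Both proteolipid genes of V0 were lower in heated oocytes than in control. ATP6V0C (chromosome 3, 39532707 to 39538704) encodes subunit c, which forms most of the proton-carrying ring. It stood at 4.26 and 4.56 FPKM in control, 2.18 and 2.40 in heat stress, and 1.11 and 1.38 in heat stress+NMN. No group overlapped another, and the order ran from control down to heat stress+NMN. The mean was 1.93-fold lower in heat stress than in control (log2 fold change of FPKM + 1, −0.72 ± 0.12 SE, adjusted P = 0.11), and 1.84-fold lower again with NMN than in heat stress alone (−0.55 ± 0.12, adjusted P = 0.23). Between heat stress+NMN and control it fell 3.54-fold (−1.27 ± 0.12, adjusted P = 0.020). P values are from limma, fitted over all tested genes. Here and below, a gene is said to have risen or fallen only at an adjusted P under 0.05, and only the comparison of heat stress+NMN with control held such genes. The 3 comparisons share samples, so their values are not independent of each other.

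ATP6V0B (chromosome 6, 167316945 to 167320355), which encodes the c'' proteolipid, showed a step rather than a gradient. It stood at 3.54 and 4.73 FPKM in control, 0.750 and 1.17 in heat stress, and 0.411 and 1.46 in heat stress+NMN. The 2 heated groups overlapped, and all 4 of their libraries lay below both controls. The heat stress mean was 4.30-fold below control (−1.39 ± 0.30, adjusted P = 0.12). With NMN it fell 4.43-fold against control (−1.45 ± 0.30, adjusted P = 0.031), but it entered the test only through its control level, and in the fit from 0.1 FPKM the adjusted P was 0.070. Its difference from heat stress alone was within its error (−0.067 ± 0.30, adjusted P = 0.92). The summed level of the 2 proteolipid genes averaged 8.55 ± 1.06 FPKM in control, 3.25 ± 0.456 in heat stress and 2.18 ± 0.926 in heat stress+NMN (SD, n = 2).

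Subunit a, which anchors the proton path and directs the pump to particular membranes, went the other way through its a2 form. ATP6V0A2 (chromosome 14, 29250400 to 29297697) stood at 1.74 and 1.69 FPKM in control, 1.89 and 2.02 in heat stress, and 2.61 and 2.99 in heat stress+NMN. The groups did not overlap. It rose 1.63-fold between control and heat stress+NMN (0.48 ± 0.12, adjusted P = 0.042), with most of the difference between the 2 heated groups (0.36 ± 0.12, adjusted P = 0.35) rather than between heat stress and control (0.12 ± 0.12, adjusted P = 0.55). Without heat stress+NMN replicate 2, the library with its highest value, the log2 fold change against control was 0.41, in a fit that leaves 1 sample in that group. With the replicate number as a block in the limma fit, its adjusted P against control was 0.074. The a1 form, ATP6V0A1, ranged from 0.829 to 0.853 FPKM in control, 0.591 to 0.662 in heat stress and 0.686 to 0.692 in heat stress+NMN. The a4 form, ATP6V0A4, ranged from 0.570 to 0.766 FPKM over all libraries. Of the summed subunit a level, the a2 share was 53.7% ± 0.538 in control, 61.8% ± 1.70 in heat stress and 66.1% ± 2.66 in heat stress+NMN (SD, n = 2), while the a1 share was 26.3%, 19.8% and 16.3%. The ratio of ATP6V0C to ATP6V0A2 averaged 2.57, 1.17 and 0.444 in the same order. SUMO4 lies within the ATP6V0A2 locus on the opposite strand and was listed at 0 in every library.

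Of the low V0 genes, ATP6V0E1 ranged from 0.797 to 0.852 FPKM in control, 0.539 to 0.546 in heat stress and 0.493 to 0.637 in heat stress+NMN. In a fit over the 11651 genes averaging at least 0.1 FPKM, its heat stress level was lower than control at an unadjusted P under 0.05 only (−0.24 ± 0.093, adjusted P = 0.31). ATP6V0D1, the usual d subunit, stayed between 0.0327 and 0.0861 FPKM, and ATP6V0D2, its osteoclast and kidney form, between 0 and 0.0425.

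**Figure D2:**
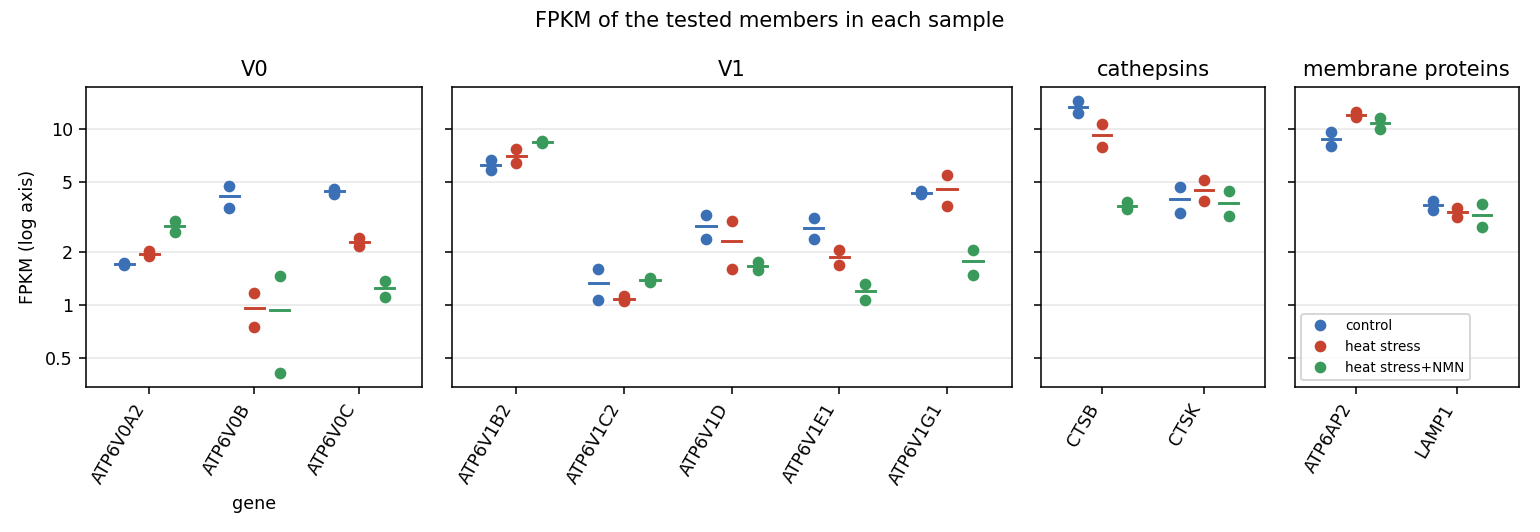
FPKM (log axis) of the 12 genes averaging at least 1 FPKM, in the control, heat stress and heat stress+NMN libraries (points, 2 a group; lines, group means). ATP6V0C and CTSB step down across the 3 groups, ATP6V1G1 is low only with NMN, and ATP6V1B2, CTSK, ATP6AP2 and LAMP1 stay within a narrow range.

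In V1, the stalk genes fell with NMN and heat together, whereas the nucleotide-binding B subunit did not. ATP6V1E1 (chromosome 5, 69752644 to 69772038) and ATP6V1G1 (chromosome 1, 255151909 to 255159299) encode subunits E and G, which pair in the peripheral stalks that hold V1 on V0. ATP6V1E1 stood at 2.38 and 3.12 FPKM in control, 2.06 and 1.69 in heat stress, and 1.33 and 1.07 in heat stress+NMN, with no overlap between groups. It fell 2.30-fold between control and heat stress+NMN (−0.77 ± 0.16, adjusted P = 0.031). Each step, from control to heat stress and from heat stress to heat stress+NMN, was about equal, with log2 differences of −0.38 ± 0.16 (adjusted P = 0.23) and −0.39 ± 0.16 (adjusted P = 0.36).

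ATP6V1G1 stood at 4.42 and 4.27 FPKM in control, 5.50 and 3.63 in heat stress, and 1.48 and 2.07 in heat stress+NMN. The control values lay between the 2 heat stress values, and the NMN libraries lay below all others. Heat stress alone differed from control by 0.037 ± 0.20 (adjusted P = 0.92), whereas the NMN group was 2.57-fold below heat stress (−0.99 ± 0.20, adjusted P = 0.22) and fell 2.45-fold against control (−0.96 ± 0.20, adjusted P = 0.032). ATP6V1G2, the neuronal form of subunit G, ranged from 0 to 0.450 FPKM and ATP6V1G3 from 0 to 0.0108.

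ATP6V1B2 (chromosome 14, 4289257 to 4318587), the B subunit of most tissues, stood at 6.64 and 5.82 FPKM in control, 6.37 and 7.70 in heat stress, and 8.53 and 8.29 in heat stress+NMN. The NMN libraries were the highest, with a log2 difference from control of 0.38 ± 0.13 (adjusted P = 0.089) that did not pass the adjusted threshold. Beside it, the ratio of ATP6V1E1 to ATP6V1B2 averaged 0.447 in control, 0.272 in heat stress and 0.142 in heat stress+NMN, and the ratio of ATP6V1G1 to ATP6V1B2 averaged 0.700, 0.667 and 0.211.

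ATP6V1D, the rotor subunit, stood at 2.36 and 3.24 FPKM in control, 3.01 and 1.60 in heat stress, and 1.58 and 1.76 in heat stress+NMN. Its log2 difference between heat stress+NMN and control was −0.50 ± 0.24 (adjusted P = 0.17). ATP6V1C2, a form of subunit C, stood at 1.07 and 1.61, 1.06 and 1.12, and 1.42 and 1.35 FPKM in the same order, and only the heat stress value of 1.06 lay outside the range of the control values. ATP6V1F, which joins subunit D in the rotor, was just below the entry to the main test, at 1.06 and 1.74 FPKM in control, 0.978 and 0.4997 in heat stress, and 0.2403 and 0.314 in heat stress+NMN. No group overlapped another, and in the fit from 0.1 FPKM its log2 difference between heat stress+NMN and control was −0.90 ± 0.20 (adjusted P = 0.075). The catalytic ATP6V1A stood at 0.204 and 0.108 FPKM in control, 0.224 and 0.243 in heat stress, and 0.219 and 0.158 in heat stress+NMN, with the heat stress values highest and no unadjusted P under 0.05 in any comparison. The other V1 genes were low, with ATP6V1H from 0.0159 to 0.0696 FPKM, ATP6V1C1 from 0.00241 to 0.130 and the testis form ATP6V1E2 from 0 to 0.0654.

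CTSB was the most abundant cathepsin in control oocytes and the member with the largest fitted log2 difference of FPKM + 1 between heat stress+NMN and control. By the ratio of mean FPKM, the fitted members ATP6V1F, 5.06-fold below control, and ATP6V0B, 4.43-fold below it, differed more. CTSB (chromosome 14, 15014139 to 15035081) encodes cathepsin B, a broadly expressed cysteine protease of the lysosome. It stood at 12.2 and 14.3 FPKM in control, 10.6 and 7.83 in heat stress, and 3.49 and 3.82 in heat stress+NMN. The groups did not overlap, and the NMN libraries lay furthest from the others. Heat stress was 1.44-fold below control (−0.49 ± 0.17, adjusted P = 0.19), and the NMN group was 2.53-fold below heat stress (−1.12 ± 0.17, adjusted P = 0.22). Against control it fell 3.63-fold (−1.61 ± 0.17, adjusted P = 0.021). The leukocyte markers were also lower with NMN, though not in heat stress alone and at far lower levels, with a sum over the 9 genes of 0.859 and 0.712 FPKM in control, 0.867 and 0.918 in heat stress, and 0.170 and 0.0701 in heat stress+NMN. Among them PTPRC, the pan-leukocyte marker, was at most 0.0211 FPKM, CD68 was at 0 in heat stress replicate 1 and both NMN libraries, and CD14, AIF1 and TYROBP were each at 0 in 5 of the 6 libraries. Their part in the CTSB difference was not tested. With each library left out in turn, the log2 difference of CTSB between heat stress and control ranged from −0.69 to −0.29. It was −0.29 without heat stress replicate 2 and −0.38 without control replicate 2. Those fits leave 1 sample in a compared group, so they cannot show whether it rests on particular libraries. With only the compared groups fitted by limma, it was unchanged at −0.49, with an unadjusted P of 0.054.

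CTSK (chromosome 4, 98389459 to 98404969), cathepsin K, best known as the collagen-degrading protease of osteoclasts, was the other expressed cathepsin. It stood at 3.31 and 4.70 FPKM in control, 5.12 and 3.91 in heat stress, and 3.18 and 4.43 in heat stress+NMN, and all 3 groups overlapped. Its log2 difference between heat stress+NMN and control was −0.056 ± 0.22 (adjusted P = 0.86). CTSB therefore made up 62.7% ± 0.155 of the summed cathepsin FPKM in control, 56.4% ± 2.72 in heat stress and 35.9% ± 0.0601 in heat stress+NMN, and CTSK 18.8% ± 2.45, 27.6% ± 0.628 and 37.2% ± 6.29 (SD, n = 2). CTSK shares 554 of its 3669 exonic bases with ARNT on the same strand, so its reads are partly uncertain. ARNT was listed between 0.00869 and 0.0753 FPKM.

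The other 11 cathepsins averaged under 1 FPKM. CTSF, a cysteine protease, ranged from 0.926 to 1.21 FPKM in control, 0.550 to 0.642 in heat stress and 0.507 to 0.716 in heat stress+NMN. Both heated groups lay below control at an unadjusted P under 0.05 only (−0.37 ± 0.12, adjusted P = 0.27, and −0.36 ± 0.12, adjusted P = 0.15, in the fit from 0.1 FPKM). CTSD, the lysosomal aspartic protease, varied as much within a group as between groups, at 0.837 and 0.809 FPKM in control, 0.119 and 0.461 in heat stress, and 0.972 and 0.152 in heat stress+NMN. CTSV reached 0.775 FPKM and CTSZ 0.893, each in a control library. CTSL ranged from 0.0190 to 0.333 FPKM, CTSH from 0.0503 to 0.334, CTSC from 0.193 to 0.353 and CTSS from 0.167 to 0.447. CTSA was above 0 in the heat stress libraries only, at 0.0364 and 0.0312 FPKM, and CTSO in a single NMN library at 0.00291. NEURL2 and PLTP overlap CTSA on the opposite strand, and their part in its level was not tested. Opposite-strand genes also overlap ATP6V0A4 (TMEM213), ATP6V1G2 (NFKBIL1), ATP6V1E2 (RHOQ and TMEM247), CTSZ (NELFCD) and LAMP5 (LOC110257415).

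Among the membrane proteins, the 2 abundant genes did not pass the adjusted test. ATP6AP2 (chromosome X, 36271154 to 36300240) encodes the prorenin receptor, an accessory subunit of the pump, and was the most abundant member over the 6 libraries. It stood at 7.97 and 9.56 FPKM in control, 12.4 and 11.6 in heat stress, and 11.5 and 9.96 in heat stress+NMN. Heat stress was 1.37-fold above control (0.42 ± 0.14, adjusted P = 0.18). Without control replicate 1 the log2 difference was 0.30, without heat stress replicate 1 it was 0.37 and without heat stress replicate 2 it was 0.46. Each of these fits leaves 1 sample in a compared group. LAMP1 (chromosome 11, 78600818 to 78617587) stood at 3.88 and 3.48 FPKM in control, 3.53 and 3.18 in heat stress, and 3.73 and 2.77 in heat stress+NMN. Its groups overlapped in every comparison, and no log2 difference exceeded 0.15 in size.

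LAMP2, the LAMP needed for fusion of autophagosomes with lysosomes and for chaperone-mediated autophagy, was low but ordered by group. It stood at 0.370 and 0.469 FPKM in control, 0.563 and 0.752 in heat stress, and 0.794 and 0.827 in heat stress+NMN. In the fit from 0.1 FPKM, the log2 difference between heat stress+NMN and control was 0.35 ± 0.10 (adjusted P = 0.11). Of the LAMP1 and LAMP2 sum, the LAMP2 share averaged 10.3% in control, 16.4% in heat stress and 20.3% in heat stress+NMN. ATP6AP1, the other accessory subunit of the pump, stood at 1.31 and 2.08 FPKM in control, 1.11 and 0.150 in heat stress, and 0.575 and 0.532 in heat stress+NMN. The control values were the highest, and the log2 difference was −0.77 ± 0.32 for heat stress (adjusted P = 0.33) and −0.78 ± 0.32 for heat stress+NMN (adjusted P = 0.20). Its relative ATP6AP1L ranged from 0.127 to 0.213 FPKM and LAMP5, a brain and dendritic cell form, from 0 to 0.0333.

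Read over the 12 tested members, the differences were mostly toward lower levels. Between heat stress and control, 4 of the 12 passed an unadjusted P of 0.05, where 22.8% of all 4713 tested genes did. ATP6AP2 was the higher gene and ATP6V0B, ATP6V0C and CTSB the lower ones, beside 12.7% of tested genes higher and 10.1% lower. Between heat stress+NMN and heat stress, 4 of the 12 passed, with ATP6V0A2 higher and ATP6V0C, ATP6V1G1 and CTSB lower, where 13.6% of all tested genes did, 7.15% higher and 6.45% lower. ATP6V0C and CTSB were also below control in heat stress alone, whereas ATP6V1G1 was not. No gene, member or not, had an adjusted P under 0.05 by limma in either of these comparisons, while 1074 and 641 genes passed without adjustment.

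Between heat stress+NMN and control, 7 of the 12 passed without adjustment, where 41.3% of tested genes did. ATP6V1B2 and ATP6V0A2 were the higher genes, beside 25.6% of tested genes, and the other 5 were lower, beside 15.7%. At an adjusted P under 0.05 the count was 6, where 21.5% of tested genes passed. ATP6V0B, ATP6V0C, ATP6V1E1, ATP6V1G1 and CTSB fell, beside 9.17% of tested genes, and ATP6V0A2 rose, beside 12.4%. Without ATP6V0B, which entered only through control, 3 of 11 members passed the unadjusted threshold between heat stress and control, and 6 passed it between heat stress+NMN and control, 5 of them after adjustment. The 6 adjusted calls became fewer whichever library was left out, as did the adjusted calls over all tested genes. Without a control or heat stress+NMN library, 1 sample is left in a compared group. Those fits therefore cannot show whether the 6 calls rest on particular libraries. The log2 difference of each of the 5 fallen genes kept its sign whichever library was left out. In the fit from 0.1 FPKM, which 29 members entered, 6 had an unadjusted P under 0.05 in heat stress against control, 5 in heat stress+NMN against heat stress and 10 in heat stress+NMN against control, beside 16.0%, 9.96% and 27.8% of its 11651 genes. There 2 members, ATP6V0C and CTSB, had an adjusted P under 0.05 between heat stress+NMN and control, beside 0.738% of genes.

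Scaling each library to the same non-mitochondrial sum, of which LOC100513953 held 37.0% in heat stress replicate 1, moved the median log2 difference over all tested genes to −0.22 for heat stress against control, 0.35 for heat stress+NMN against heat stress and 0.13 for heat stress+NMN against control. Under it, the unadjusted calls among members numbered 3, 0 and 5, and ATP6AP2 was no longer above control in heat stress (log2 difference 0.082). With LOC100513953 left out of that sum they numbered 5, 4 and 6.

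The medians over the groups of genes are a description and were not tested against each other. Between heat stress+NMN and control the median log2 difference was −1.27 for the 3 tested V0 genes, −0.50 for the 5 V1 genes, −0.84 for the 2 cathepsins and 0.061 for the 2 membrane proteins, where the median over all tested genes was 0.11. The V0 median was −0.39 without ATP6V0B. In the fit from 0.1 FPKM, over 6, 8, 10 and 5 genes, the medians lay closer together, at −0.17, −0.28, −0.14 and −0.094, beside −0.010 over all its genes. Between heat stress and control the medians in the main fit were −0.72, −0.15, −0.17 and 0.16, beside 0.049 over all genes. There the V0 median was −0.30 without ATP6V0B. Between heat stress+NMN and heat stress they were −0.067, −0.28, −0.66 and −0.095, beside 0.078, and the V0 median was −0.096 without ATP6V0B.

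**Figure D3:**
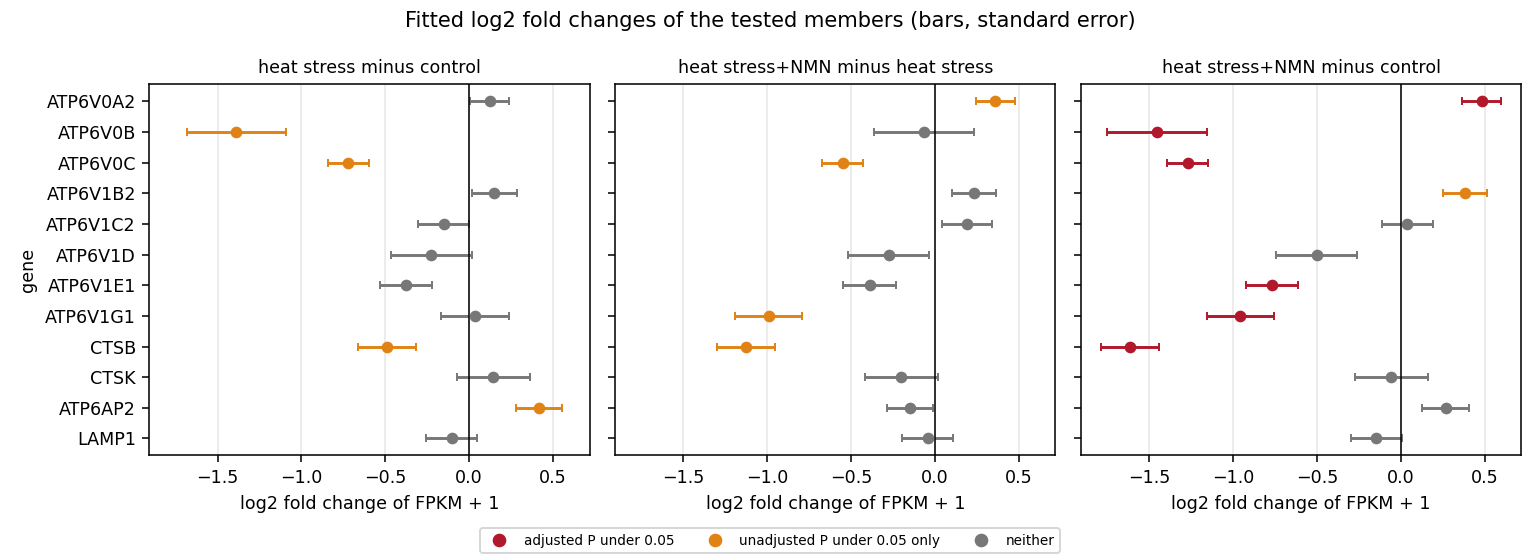
Fitted log2 fold change of FPKM + 1 (points; bars, standard error) of the 12 tested genes in the 3 comparisons, coloured by whether the adjusted or only the unadjusted P was under 0.05. Adjusted calls stand in the right panel only, 5 below 0 and ATP6V0A2 above it.

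The sums over all genes of a group show at which step each sum moved. Summed V0 FPKM was 12.7 ± 1.01 in control, 7.01 ± 0.495 in heat stress and 7.06 ± 1.09 in heat stress+NMN (SD, n = 2). The difference in this sum lay between control and the heated groups. From heat stress to heat stress+NMN, mean ATP6V0C went from 2.29 to 1.25 FPKM and mean ATP6V0A2 from 1.96 to 2.80. The near-equal V0 sums of the heated groups therefore do not show that the V0 genes were unchanged. Summed V1 FPKM was 19.4 ± 1.32, 18.2 ± 1.65 and 15.2 ± 0.188, and the NMN libraries, at 15.3 and 15.1, and heat stress replicate 2, at 17.1, lay below the control range of 18.5 to 20.4. Summed cathepsin FPKM was 21.2 ± 2.46, 16.3 ± 2.75 and 10.2 ± 0.653, and summed membrane protein FPKM 14.8 ± 1.45, 16.8 ± 1.41 and 15.5 ± 1.77. These sums are a description and were given no test. They rest on the most abundant genes of each group. Under the same non-mitochondrial sum the V0 and V1 sums were higher with NMN than in heat stress (log2 ratios 0.31 and 0.087), the membrane protein sum was lower in heat stress than in control (−0.14), and the cathepsin sum kept its order (−0.73 and −0.31). Leaving LOC100513953 out of that sum returned all of these to within the spread between replicates of the values as deposited.

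**Figure D4:**
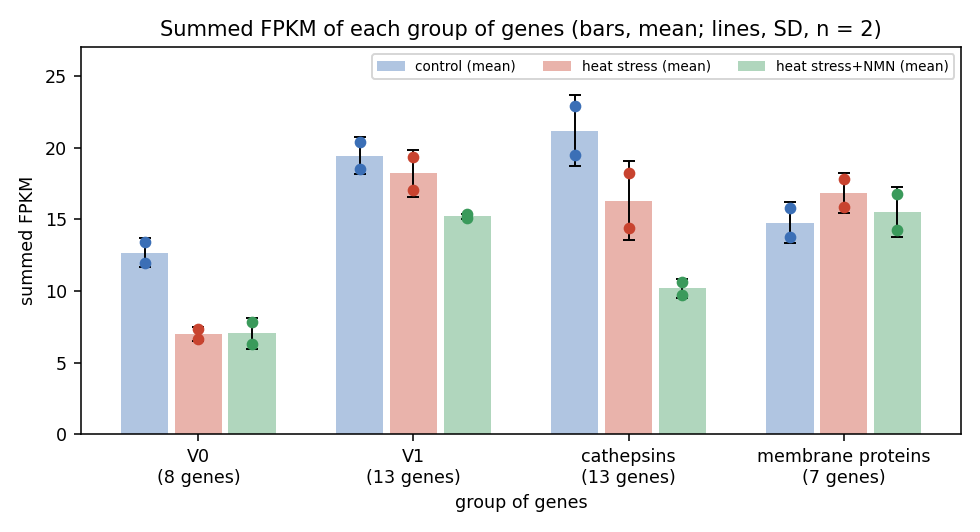
Summed FPKM of the 8 V0 genes, 13 V1 genes, 13 cathepsins and 7 membrane proteins in each library (points), with the mean (bars) and SD (lines, n = 2) of control, heat stress and heat stress+NMN. V0 is lower in both heated groups, cathepsins step down across the groups, and membrane proteins stay within 13.7 to 17.8 FPKM in all libraries.

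The direction of the differences was ordered by transcript length among the members. ATP6V0B, ATP6V1G1, ATP6V0C and ATP6V1E1, whose longest annotated transcripts are 1064, 1071, 1178 and 1375 nt, were the fallen genes of the pump, and ATP6V1B2 and ATP6V0A2, at 3067 and 5884 nt, the highest differences. Across the 8 tested pump genes, log2 length and the log2 difference between heat stress+NMN and control had a Pearson r of 0.942 and a Spearman rho of 0.976, and across the 12 members an r of 0.703 and a rho of 0.734. The points are genes from the same 6 libraries and are not independent replicates. They include ATP6V0B, the shortest, which entered the test only through its control level. The correlations, and the median of the shortest members below, were not computed without it. The same direction was present across all 4713 tested genes, with an r of 0.374. Genes under 1500 nt had a median log2 difference of −0.22, those from 1500 to under 3000 nt 0.030, and those from 3000 nt 0.27, and the members in these classes had medians of −1.11, −0.15 and 0.38. At an adjusted P under 0.05 by limma, 15.1% of tested genes under 1500 nt fell and 2.24% rose. The shares were 11.3% and 6.25% from 1500 to under 3000 nt, and 5.33% and 20.5% from 3000 nt. With the trend with length removed from every library, ATP6V0C (adjusted P = 0.022), ATP6V1E1 (0.037) and CTSB (0.016) kept an adjusted P under 0.05, while ATP6V0B (0.064), ATP6V1G1 (0.073) and ATP6V0A2 (0.265) did not. CTSB, at 2528 nt, had the lowest log2 difference of the 12 after this removal, at −1.65.

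**Figure D5:**
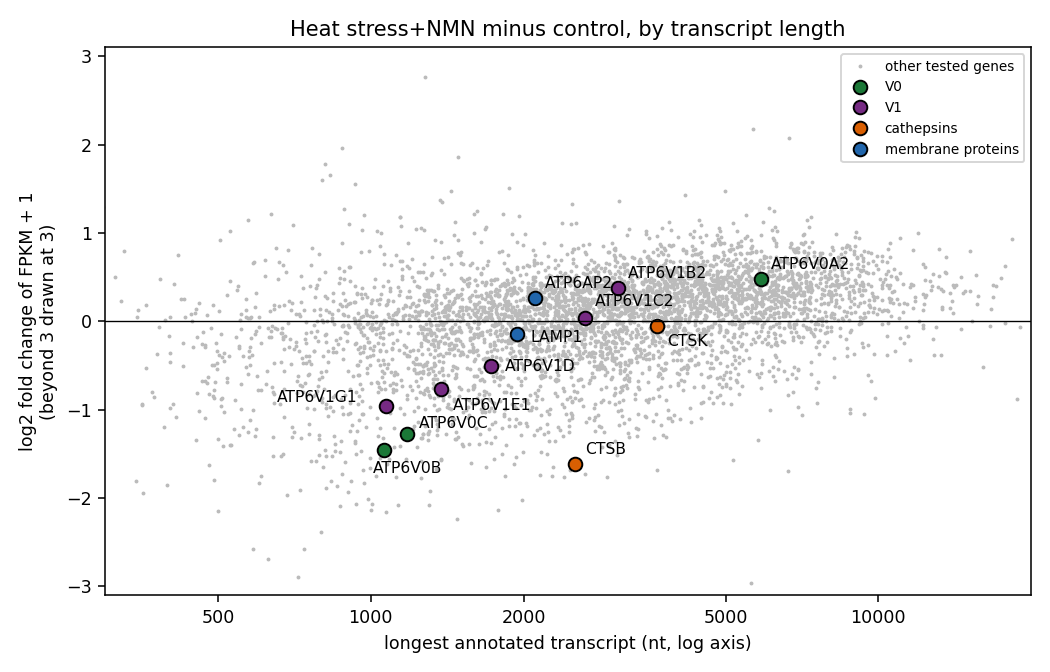
Log2 fold change of FPKM + 1 between heat stress+NMN and control against the longest annotated transcript (log axis), for the 12 tested members by group (large points) and the other tested genes (grey). The shorter pump genes lie low and the longer ones above 0, and CTSB lies apart at 2528 nt.

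Other genes of the lysosome were tested in the same fit. Of 11 tested acid hydrolases other than cathepsins, 3 fell between control and heat stress+NMN and none rose, where 9.17% of all tested genes fell and 12.4% rose. HYAL2, a hyaluronidase, stood at 4.73 and 3.59 FPKM in control, 1.41 and 1.55 in heat stress and 1.36 and 1.52 in heat stress+NMN (−1.07 ± 0.15, adjusted P = 0.021, NMN group against control). MANBA, a beta-mannosidase, stood at 8.87 and 10.1, 7.39 and 6.47, and 5.03 and 5.38 FPKM (−0.76 ± 0.13, adjusted P = 0.024). HYAL2 was already at its lower level in heat stress alone, while MANBA stepped down across the groups.

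Of 5 other tested lysosomal membrane proteins, 1 rose and none fell, where 12.4% of all tested genes rose and 9.17% fell. CD164, a sialomucin of endosomes and lysosomes, rose from 34.5 and 29.8 FPKM in control to 58.6 and 49.5 in heat stress+NMN (0.73 ± 0.14, adjusted P = 0.027). Of 4 tested assembly factors of the pump, VMA21, which assembles V0 in the endoplasmic reticulum, rose from 14.5 and 14.1 FPKM in control to 19.9 and 19.5 with NMN (0.44 ± 0.12, adjusted P = 0.0498). This assembly factor rose in the comparison in which the proteolipid genes fell.

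Of 7 tested sorting genes, M6PR, the cation-dependent mannose 6-phosphate receptor that carries hydrolases to the lysosome, fell from 2.32 and 1.81 FPKM in control to 0.842 and 1.19 with NMN (−0.60 ± 0.16, adjusted P = 0.049). VPS35, a subunit of the retromer, was higher at an unadjusted P under 0.05 only (0.41 ± 0.12, adjusted P = 0.061). At that threshold 3 of the 7 were higher and 2 lower, where 25.6% of all tested genes were higher and 15.7% lower. None of the 5 tested Ragulator and RAG genes had an unadjusted P under 0.05 in any comparison. Of 3 tested transcription regulators of lysosomal genes, TFE3 stood at 5.33 and 4.16 FPKM in control, 2.26 and 2.63 in heat stress and 2.91 and 2.69 in heat stress+NMN, and fell between control and the NMN group (−0.59 ± 0.15, adjusted P = 0.043). MAX, a bHLH factor, was higher at an unadjusted P under 0.05 only (0.33 ± 0.13, adjusted P = 0.11). Of all tested genes, 9.17% fell in this comparison. Of 3 tested cathepsin inhibitors, SERPINB1 and CST3 were lower in heat stress than in control at an unadjusted P under 0.05 only (−0.60 ± 0.22, adjusted P = 0.20, and −0.36 ± 0.14, adjusted P = 0.21). At that threshold 10.1% of all tested genes were lower.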

How the data were processed

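Oocyte mRNA of 3 groups of 2 samples was measured by RNA sequencing. Per the study's methods, random-primed libraries were made from pooled oocytes with a kit not described as marking strand, reads were aligned to Sscrofa11.1 with TopHat, and the submitters' processing notes name Cufflinks 2.2.1, Cuffnorm and Cuffdiff. The authors deposited FPKM per gene and sample, with further columns of their own fold changes and P values, which were not used. Groups were taken from the labels. From the FPKM, log2(FPKM + 1) of the 4713 genes averaging at least 1 FPKM over the 6 samples was fitted with limma 3.58.1 (3 group means, moderated variance with trend, R 4.3.3), with Benjamini-Hochberg adjustment over all tested genes and two-sided tests. Fold changes on this scale understate changes of low genes. Members averaging at least 0.1 FPKM but under 1 take their values from a fit of the 11651 genes averaging at least 0.1. Every member was accounted for, and of each other list at most the 2 genes with the smallest P in each comparison were named. Members, lists and tests were chosen with earlier results of these data known. The fit was tested on simulated data. Coordinates and lengths are from the RefSeq annotation of Sscrofa11.1. Alternatives were another pseudocount, 3 filters, 4 scalings, a block for the replicate number, fits of only the groups compared, no variance trend, each sample left out in turn and, added after seeing the data, removal of the trend with length. The scaling without LOC100513953 was also added after seeing the data.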

Additional observations from a re-analysis of the deposited data

How the results depend on the processing

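With 2 libraries a group, FPKM without counts and an unknown depth, small differences of genes near 1 FPKM were beyond these data. Between heat stress+NMN and control, ATP6V0B, ATP6V0C, ATP6V1E1, ATP6V1G1 and CTSB kept their direction and an unadjusted P under 0.05 under every alternative in which they were tested. The adjusted calls were less stable, and the cause was not tested except where fewer samples or other genes entered the fit by construction. Adjusted calls among members, 6 as reported, numbered 6 with a pseudocount of 0.1 FPKM, quantile normalization, the same median or no variance trend, and 5 with only the compared groups or the same non-mitochondrial sum without LOC100513953. They numbered 3 under the same non-mitochondrial sum, the replicate block or removal of the trend with length, 2 with a minimum mean of 0.1 FPKM, 1 with a minimum of 5 FPKM and 0 with no filter, where 11 members had an unadjusted P under 0.05. Of the 6 called members only CTSB, at a mean of 8.73 FPKM, entered the fit from 5 FPKM.

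Same-numbered replicates did not deviate together (correlations over 4713 genes of −0.032, 0.0081 and −0.014), so no large shift shared by a replicate number was seen. With 2 samples a group, this cannot show whether same-numbered samples came from the same collection of oocytes. Over all tested genes, the counts of 1074, 641 and 1948 with an unadjusted P under 0.05 ranged over all alternatives from 468 to 2388, 266 to 1557 and 789 to 3700, the 1015 with an adjusted one numbered as few as 0, and up to 84 and 38 had one in the comparisons that had none. With the replicate number as a block, adjusted calls between heat stress+NMN and control numbered 3 members and 445 genes, against 6 and 1015, CTSB between heat stress and control and ATP6V1B2 between heat stress+NMN and control no longer passed an unadjusted P of 0.05, and no other member call at an unadjusted P under 0.05 changed.

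In the sets of values that follow, the order is heat stress against control, then heat stress+NMN against heat stress, then heat stress+NMN against control, and values are log2 differences or medians unless counts are named. With a pseudocount of 0.1 FPKM the V0 median was −0.92, −0.22 and −1.75, and the last V1 median −0.70. With a minimum of 0.1 FPKM the V0 median was −0.21, 0.037 and −0.17, the membrane protein median −0.0040 in the first and −0.094 in the last, the cathepsin median −0.0057 in the middle and −0.14 in the last, and the V1 median −0.28 in the last. With a minimum of 5 FPKM the unadjusted member calls numbered 2, 1 and 2. No V0 gene and 1 gene of each other group entered that fit, so its medians are values of single genes. They were 0.15, 0.23 and 0.38 for ATP6V1B2 of V1 and −0.49, −1.12 and −1.61 for CTSB of the cathepsins. For ATP6AP2 of the membrane proteins they were 0.42 in the first and 0.27 in the last. With no filter the unadjusted member calls numbered 8, 7 and 11, the V0 median was −0.11, 0.021 and −0.076, the middle and last V1 medians −0.051 and −0.036, the middle and last cathepsin medians −0.0088 and −0.080, and the first membrane protein median −0.0077.

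Under the same non-mitochondrial sum, adjusted member calls numbered 1, 0 and 3 and unadjusted ones 3, 0 and 5. The first medians were −0.97 (V0), −0.33 (V1), −0.49 (cathepsins) and −0.15 (membrane proteins), with ATP6V0A2 (−0.097), ATP6V1B2 (−0.16), ATP6V1G1 (−0.27) and CTSK (−0.15) reversed. The middle medians were 0.074, −0.0032, −0.34 and 0.23, with ATP6AP2 (0.21), ATP6V0B (0.074), CTSK (0.11) and LAMP1 (0.25) reversed. Log2 ratios of the sums were −1.13 and 0.31 (V0), −0.42 and 0.087 (V1), −0.73 and −0.31 (cathepsins), and −0.14 and 0.22 (membrane proteins) in the first and middle comparisons. With LOC100513953 left out, LAMP1 alone was reversed (0.00063, middle). Quantile normalization moved the middle V0 median and reversed ATP6V0B, both at 0.031. With the trend with length removed, the V0 median was −0.59 in the first and −1.08 in the last, and ATP6V0A2 (−0.022, first), ATP6V0B (0.0041, middle) and ATP6V1C2 (−0.0093, last) were reversed.

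With each sample left out in turn, unadjusted member calls ranged from 2 to 4, from 3 to 5 and from 5 to 8, and adjusted ones in the last comparison from 0 to 5. The V0 median ranged from −0.77 to −0.67, −0.47 to 0.33 and −1.36 to −1.05, the V1 median from −0.32 to 0.031, −0.48 to 0.039 and −0.67 to −0.33, the cathepsin median from −0.35 to 0.0072, −0.84 to −0.48 and −0.99 to −0.68, and the membrane protein median from 0.10 to 0.21, −0.22 to 0.034 and −0.069 to 0.19. Log2 ratios of the sums ranged from −0.93 to −0.77, −0.16 to 0.16 and −1.01 to −0.70 (V0), from −0.19 to −0.0049, −0.35 to −0.16 and −0.42 to −0.28 (V1), from −0.56 to −0.22, −0.84 to −0.50 and −1.17 to −0.93 (cathepsins), and from 0.092 to 0.29, −0.24 to −0.0066 and −0.051 to 0.18 (membrane proteins). The genes that changed sign had no unadjusted P under 0.05 as reported. In the first comparison these were CTSK (−0.057 without control replicate 1, −0.016 without heat stress replicate 1, up to 0.35), ATP6V1C2 (0.015 without control replicate 2), ATP6V1G1 (−0.21 without heat stress replicate 1, up to 0.28) and ATP6V1D (0.088 without heat stress replicate 2, down to −0.54). In the middle these were ATP6V1D (0.039) and LAMP1 (0.016) without heat stress replicate 1, ATP6V0B without heat stress replicate 2 (0.089) or heat stress+NMN replicate 1 (0.33), and LAMP1 without heat stress+NMN replicate 2 (0.12, down to −0.20). In the last these were ATP6V1C2 without control replicate 1 (−0.13), CTSK without control replicate 2 (0.14) or heat stress+NMN replicate 1 (0.13, down to −0.26), and LAMP1 without heat stress+NMN replicate 2 (0.016).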
